A study of Rattus norvegicus with 56 samples.

Results

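Acetylation of histone H3 at lysine 9 (H3K9ac) was compared between the haemorrhage side (ipsilateral) and the other side (contralateral) of the brains of 13-month-old rats with intracerebral haemorrhage, which is bleeding inside the brain. The comparison used 4 of the 56 samples of the study and 2 of its 16 peak lists, 1 list for each side, with 69557 ipsilateral and 93770 contralateral peaks. Both groups were of brain tissue of the same disease and age and received no agent. Strain, sex, the time after the bleed and the cell types of the tissue are not given in the sources used here, and each list pools 2 ChIP and 2 input libraries. The labels do not say whether those libraries came from separate rats. With 1 pooled list for each side there is no spread between replicates and no test of the sides, and the 95% Wilson intervals given below cover counting error over peaks or regions only. In bulk tissue, more cells of a type and more of the mark in each cell cannot be told apart.

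H3K9ac is written by acetyltransferases such as GCN5 and PCAF and erased by histone deacetylases, and it is a mark of active chromatin. It is strongest at promoters, in the nucleosomes around active start sites, and is also found at active enhancers at a lower level. H3K4me3 is the usual mark of promoters, and H3K27me3 is the repressive mark of the Polycomb complexes. A peak of H3K9ac was therefore called promoter-type when it lay within 2 kb of an H3K4me3 peak of either side at the same age, and distal otherwise. The class says where a peak lies and not which gene it belongs to, and the folds of H3K4me3 on each side are given further on beside those of H3K9ac.

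The sides differed in depth. Of 106057405 ipsilateral ChIP tags, 19323327 were kept and 81.8% were removed as duplicates, while of 101874160 contralateral tags 46299770 were kept and 54.6% were duplicates. The mean coverage of the genome by ChIP fragments was thus 1.55 on the ipsilateral side and 3.45 on the contralateral side, a ratio of 0.449. The H3K4me3 lists were near each other in depth, with 86748494 and 91768484 tags kept and 25.3% and 25.4% duplicates. Because of this gap, the strength of a peak is given below in 3 ways: the authors' fold over the local background, the rank of that fold within its own list, and the peak density, which is the highest fragment coverage in the peak divided by the mean coverage of the genome in that list. The lowest density at which a peak was called was 4.53 in the ipsilateral list and 2.90 in the contralateral list.

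Promoter-type H3K9ac was largely common to both sides, and distal H3K9ac was not. In the ipsilateral list 31781 peaks (45.7%) were promoter-type and 37776 distal, and in the contralateral list 33626 (35.9%) and 60144. Of the ipsilateral promoter-type peaks, 82.1% (interval 81.7 to 82.6) overlapped a contralateral peak, and 73.2% (72.7 to 73.6) did so the other way. Of the distal peaks, 39.8% (39.3 to 40.3) of the ipsilateral and 23.8% (23.5 to 24.2) of the contralateral ones had a partner. When a partner had to cover, and be covered over, at least 50% of the peak, the promoter-type shares were 56.0% and 53.0% and the distal shares 16.5% and 10.4%. Joined where they overlapped, the peaks of both lists formed 37409 promoter-type regions, of which 22712 (60.7%) held a peak on both sides, 5676 on the ipsilateral side only and 9021 on the contralateral side only. The distal regions numbered 82025, of which 13478 (16.4%) were shared, 22739 ipsilateral only and 45808 contralateral only. The ipsilateral side thus held 38.6% of the 1-sided promoter-type regions and 33.2% of the 1-sided distal regions.

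Strong promoter-type peaks nearly all had a partner, and strong distal peaks were few. Of 10598 ipsilateral promoter-type peaks that reached a fold of 8, 16 lacked a contralateral partner, and of 10099 contralateral ones 13 lacked an ipsilateral partner. Among distal peaks of that fold, 9 of 83 ipsilateral and 1 of 53 contralateral peaks lacked a partner. Ranked by −log10 q, the first 10000 peaks of each list were 99.7% (ipsilateral) and 99.8% (contralateral) promoter-type, and 2 of the ipsilateral and 0 of the contralateral promoter-type ones had no partner. The distal peaks among them numbered 33 ipsilateral, 5 of them without a partner, and 17 contralateral, all with one. The share with a partner then fell with the rank in both classes. Among the ranks from 20001 to 30000, 77.8% of ipsilateral promoter-type and 53.6% of ipsilateral distal peaks had a partner, and 70.6% and 45.0% of contralateral ones. In the last bin of each list these shares were 48.8% and 27.2% on the ipsilateral side and 31.2% and 13.1% on the contralateral side. At every rank past 10000 the promoter-type share lay above the distal share of the same list.

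**Figure D1:**
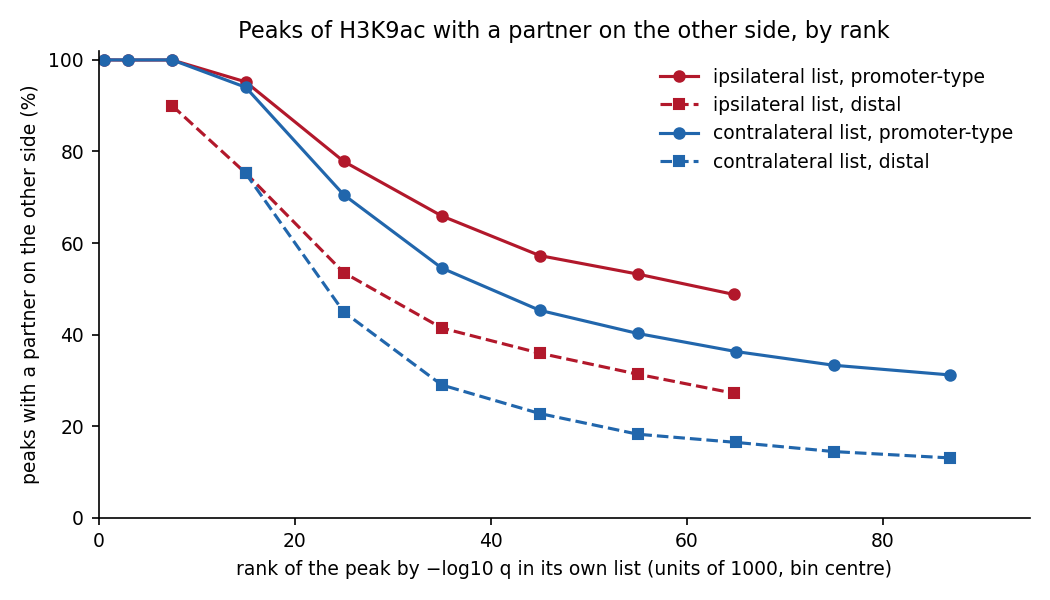
Share of H3K9ac peaks with an overlapping peak on the other side (y axis, percent) against the rank of the peak by −log10 q in its own list (x axis, at the centre of each bin, in units of 1000), for the ipsilateral list in red and the contralateral list in blue, with promoter-type peaks as solid lines and distal peaks as dashed lines. Bins with fewer than 20 peaks are left out. Nearly all promoter-type peaks in the first 10000 ranks had a partner, and at later ranks the distal lines run below the promoter-type lines of the same list.

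With equal numbers of peaks, the 69557 of highest −log10 q in each list, the classes kept their order. Partners were then found for 79.0% of ipsilateral and 78.8% of contralateral promoter-type peaks, and for 33.1% and 29.0% of distal peaks. The peaks without a partner numbered 6662 ipsilateral and 6262 contralateral in the promoter-type class, and 25279 and 28400 in the distal class. The ipsilateral share of 1-sided regions was then 51.6% for promoter-type and 47.1% for distal regions. Lists of equal size leave similar totals of peaks without a partner, so the likeness of the sides was largely set by this matching. With a fold of 4 or more as the entry, the ipsilateral share of 1-sided regions was 69.3% and 70.5%. That entry left the lists unequal in size. It kept 24508 ipsilateral and 19874 contralateral promoter-type peaks, and 16245 and 8127 distal ones. The side with more 1-sided regions thus changed with the peaks entered. The shortfall of partners in the distal class was present in both of these settings.

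The depth gap was also put on the peaks themselves. When the coverage and background of each contralateral peak were scaled to the ipsilateral depth, 93.1% of the shared and 61.6% of the 1-sided promoter-type peaks would still have passed the ipsilateral list's lowest −log10 p, and 75.9% and 52.8% of the distal peaks. Of the contralateral peaks that would have passed, 80.5% (22901 of 28459) of the promoter-type and 31.0% (10884 of 35071) of the distal ones had an ipsilateral peak. Thus 5558 promoter-type and 24187 distal contralateral peaks passed on their scaled values and had no ipsilateral partner. All ipsilateral peaks would have passed at the contralateral depth, but this was fixed in advance. Raising coverage and background together can only raise the −log10 p of an enriched peak. This scaling holds the measured density fixed and gives no sampling error of its own, so it cannot show how many peaks would be missed at the lower depth.

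Peaks with a partner were longer and ranked higher than those without. In the ipsilateral list the median length of promoter-type peaks was 887 bp with a partner and 306 bp without, and in the contralateral list 1087 and 317 bp. Distal medians were 390 and 284 bp on the ipsilateral side and 480 and 295 bp on the contralateral side. Of the promoter-type peaks of 2 kb or longer, 1 of 3597 ipsilateral and 1 of 4592 contralateral ones had no partner, and of the distal ones 1 of 69 and 11 of 382. The median fold of ipsilateral promoter-type peaks was at percentile 80.5 of its list with a partner and at 39.4 without, and on the contralateral side at 86.5 and 41.6. For distal peaks the gap was narrower, at 40.9 and 33.6 ipsilateral and 52.8 and 36.0 contralateral. Long, high peaks were therefore mostly promoter-type and found on both sides, and distal peaks were short and low whether or not they had a partner.

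**Figure D2:**
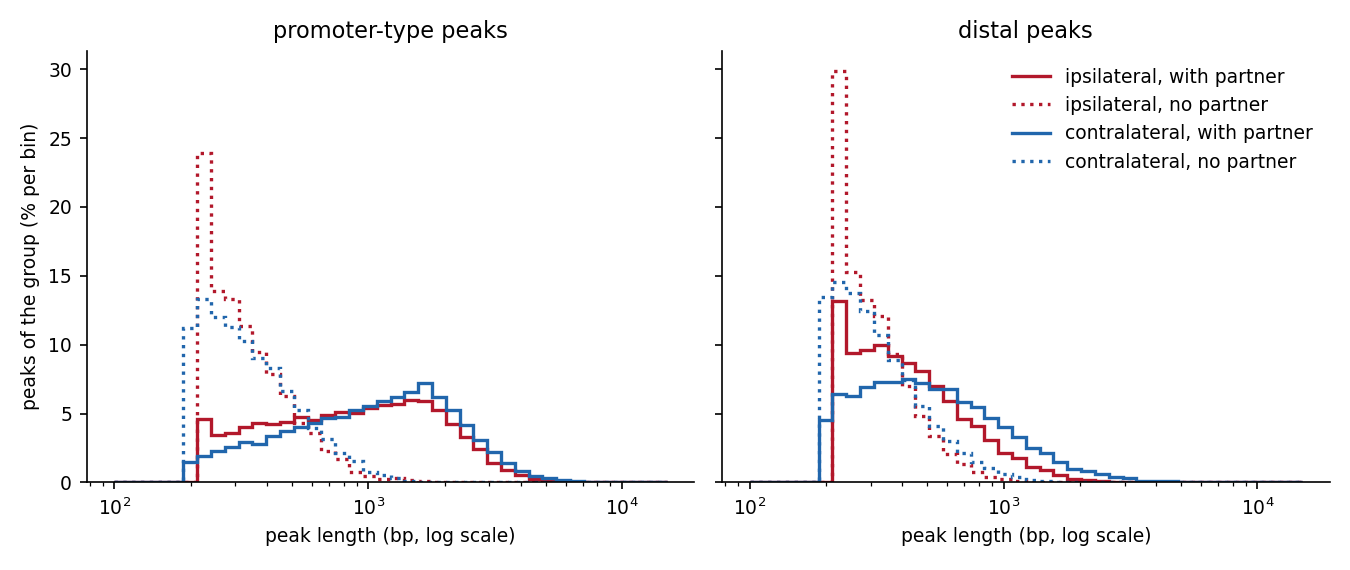
Length of H3K9ac peaks (x axis, bp, log scale) as the percent of peaks of each group per length bin (y axis), for promoter-type peaks on the left and distal peaks on the right, with the ipsilateral list in red and the contralateral list in blue, solid for peaks with a partner and dotted for those without. Peaks without a partner crowd at the short end in both classes, with medians of 284 to 317 bp.

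Within shared regions the ipsilateral peaks covered less and reached a higher density. The median ratio of covered length, ipsilateral to contralateral, was 0.927 at promoter-type and 0.838 at distal regions, and 37.9% and 37.8% of regions were longer on the ipsilateral side. The ipsilateral peaks were also in more pieces than the contralateral ones at 2739 promoter-type regions, against 1387 the other way. At promoter-type regions the median density was 20.1 ipsilaterally and 17.7 contralaterally, and 9.70 and 7.54 at distal regions. The median of the ratio was 1.16 and 1.32, and the ipsilateral density was the higher one at 73.2% and 84.3% of regions. Split into 4 equal groups by strength, promoter-type regions had median ratios of 1.31, 1.17, 1.09 and 1.13 from the weakest to the strongest, and distal regions 1.38, 1.36, 1.27 and 1.21. The distal ratio thus fell from each group to the next, while the promoter-type ratio fell over the first 3 groups and was higher again in the strongest. The part of the calling limit, which was 4.53 and 2.90 in density, and of the 81.8% and 54.6% of duplicate tags in these ratios was not tested.

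**Figure D3:**
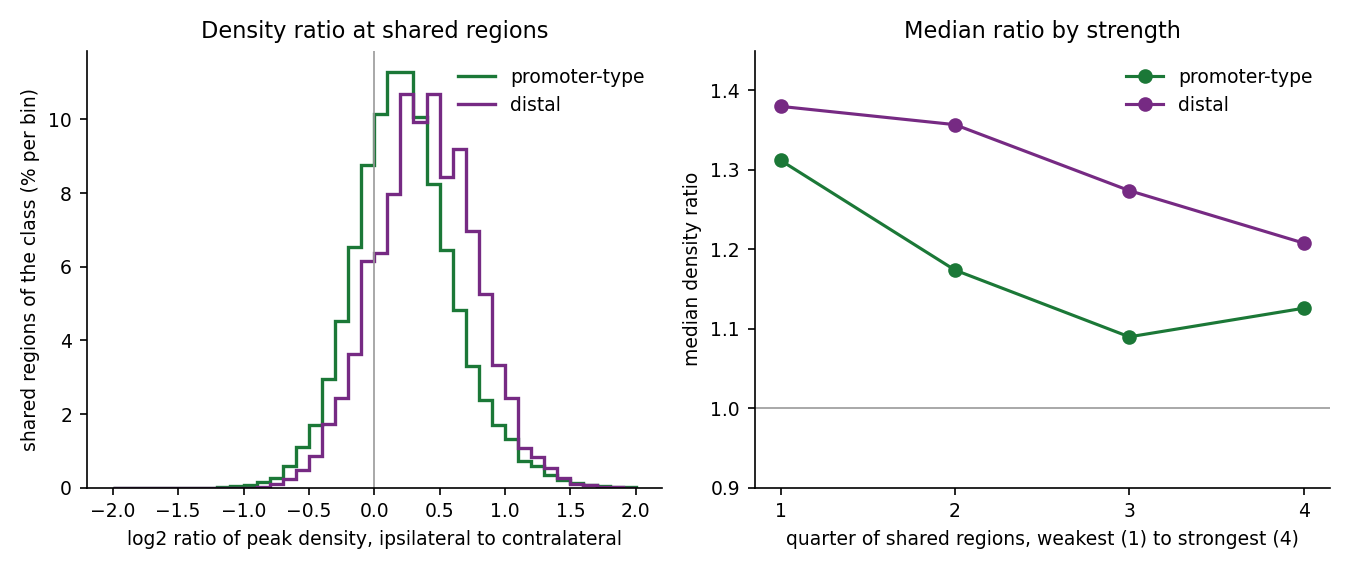
Left, log2 ratio of peak density, ipsilateral to contralateral (x axis), as the percent of shared regions of each class per bin (y axis), for promoter-type regions in green and distal regions in purple. Right, the median ratio (y axis, starting at 0.9) in 4 equal groups of shared regions from the weakest to the strongest (x axis), where all 8 medians lie above 1, between 1.09 and 1.38.

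Order was kept between the sides at promoters far more than away from them. Across the 22712 shared promoter-type regions the rank correlation of the authors' fold between the sides was 0.82, and across the 13478 shared distal regions it was 0.21, as a description over regions of the same libraries. Among the first 10000 peaks of each list by −log10 q, the promoter-type value was 0.44. For density, the values over all shared regions were 0.92 and 0.48. The fold percentile differed by at most 10 points between the sides in 63.5% of promoter-type and 25.3% of distal regions. Distal folds spanned a narrow range near the calling limit, with medians of 4.01 ipsilateral and 3.42 contralateral, against 7.38 and 7.08 at promoter-type regions.

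A density at least 2 times higher on the ipsilateral side was found at 1527 of the 36190 shared regions (4.22%), and on the contralateral side at 25 (0.0691%). By class, 792 promoter-type regions (3.49%) and 735 distal regions (5.45%) were past this ratio toward the ipsilateral side, and 24 and 1 toward the contralateral side. Toward the ipsilateral side the promoter-type share lay below and the distal share above that of all shared regions, and toward the contralateral side the order was the reverse. A shared region had to reach a density of 4.53 ipsilaterally but only 2.90 contralaterally. The median contralateral density was 17.7 at shared promoter-type and 7.54 at shared distal regions. The part of the calling limits and of these densities in the counts of each side and class was not tested.

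The leading shared promoter-type region lay at chr9:69885888-69889954, where up to 165 ipsilateral and 257 contralateral fragments overlapped, the folds were 40.3 and 35.1 and the densities 107 and 74.6. H3K4me3 had folds of 9.07 and 10.6 there, and H3K9ac at 21 months 10.9 and 8.67. The next, at chr7:27080990-27082330, had H3K9ac folds of 32.8 and 34.2. The widest promoter-type region by the shorter of its covered lengths, at chr1:221150239-221163718, spanned 13480 bp and was covered over 12855 bp ipsilaterally and 13028 bp contralaterally. The region at chr1:221199749-221210014 lay in the same neighbourhood, was the third by this measure and was covered over 10098 and 10208 bp. All of these were strong on both sides.

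Ranked by the lower of the folds of both sides, the leading distal region was at chr19:30860994-30862837, 42007 bp from the nearest H3K4me3 peak, with folds of 8.65 ipsilateral and 8.95 contralateral. The second, at chr1:221167933-221169430, had folds of 10.9 and 8.49 and lay between the wide promoter-type regions of chromosome 1 named above, 4178 bp from H3K4me3. The widest distal region by the shorter of its covered lengths, at chr3:9542358-9549922, was covered over 7565 bp ipsilaterally and 7217 bp contralaterally. Its folds were 7.15 and 10.4. The fifth distal region by the lower fold, at chr3:9550917-9552936, was its neighbour, with folds of 7.86 and 8.48. Each of these 4 distal regions had an H3K9ac peak in both lists of the older rats as well, with folds of 3.53 to 8.45.

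The strongest ipsilateral-only promoter-type region by fold lay at chr10:103437616-103438765, with a fold of 11.2 from 35 fragments and a density of 22.6. H3K4me3 was called there on the ipsilateral side alone, with a fold of 4.34. The second, at chr4:155922172-155923664, had a fold of 10.2, and its H3K4me3 folds were 6.37 ipsilateral and 3.32 contralateral. The third, at chr8:96551128-96553845, was 2718 bp long with a fold of 10.1, and its H3K4me3 folds were 10.4 and 5.01. The remaining 2 of the 5, at chr1:169539253-169540299 and chr11:58060137-58060829, each had an H3K9ac fold of 10.03, with H3K4me3 folds of 6.49 and 3.45 at the former and 6.65 and 4.08 at the latter. In all 5, H3K4me3 was thus higher on the ipsilateral side or found there alone.

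At the 5 leading contralateral-only promoter-type regions H3K4me3 was called on both sides, with folds nearer each other. The first, at chr1:233254454-233255151, had an H3K9ac fold of 9.67, and its H3K4me3 folds were 9.64 ipsilateral and 9.65 contralateral. At chr8:16287558-16287835 the H3K9ac fold was also 9.67, with H3K4me3 folds of 6.83 and 6.21. At chr5:33180631-33181472 it was 9.44, with H3K4me3 folds of 16.9 and 11.9. The fourth, at chrX:111690690-111691074, had H3K4me3 folds of 3.55 and 4.98, and the fifth, at chr10:95123568-95123892, had 8.17 and 8.31. All 5 were shorter than 1 kb, and H3K4me3 was higher on the contralateral side in 3 of them.

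Shared regions could also differ widely in rank. The promoter-type region at chr10:18996473-18998059 had H3K9ac folds of 11.5 ipsilateral and 2.098 contralateral, at percentiles 91.7 and 1.37 of their lists, and was covered over 1587 and 201 bp. Its H3K4me3 folds were 11.9 and 2.76, so both marks were higher on the ipsilateral side. The region with the widest gap the other way, at chr10:88243213-88244085, had H3K9ac folds of 2.44 and 7.24, from 12 and 52 fragments, at percentiles 0.218 and 87.8. Its H3K4me3 folds were 2.87 and 2.14, so H3K4me3 was not higher on the contralateral side there. The distal region with the widest gap toward the ipsilateral side, at chr16:1762638-1763383, had folds of 7.68 and 2.21, and in the older rats 3.21 and 2.39. The widest distal gap toward the contralateral side, at chr5:139898380-139898999, had folds of 2.61 and 6.17, and in the older rats 4.51 and 2.81. The folds of the older rats tended to be higher ipsilaterally in general. Their median ratio, ipsilateral to contralateral, was 1.14 over the 8063 shared distal regions with a peak in both older lists.

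H3K4me3 was counted as leaning to a side where its fold was at least 1.5 times higher on that side or where it was called there alone. The class required an H3K4me3 peak on at least 1 side, so the presence of H3K4me3 was fixed by the choice of the regions. A region with H3K4me3 called on 1 side alone entered the class through that side's list, so its lean was not independent of the choice. Over all 37409 promoter-type regions, 20.2% leaned ipsilateral and 9.86% contralateral. Among the 100 ipsilateral-only regions of highest −log10 q, 57.0% (interval 47.2 to 66.3) leaned ipsilateral and 6.00% (2.78 to 12.5) contralateral. Among the 100 shared regions whose H3K9ac density was most ipsilateral, with a median ratio of 2.93, these shares were 61.0% (51.2 to 70.0) and 7.00% (3.43 to 13.7). H3K4me3 was called on the ipsilateral side alone at 29 and 43 regions of these groups, which entered the class only through that list. At the 67 and 52 regions with H3K4me3 on both sides, the median ratio of its folds, ipsilateral to contralateral, was 1.29 and 1.31. It was 1.035 over the 32385 promoter-type regions with H3K4me3 on both sides. In these groups H3K9ac and H3K4me3 thus tended to the ipsilateral side together, in part by the choice of regions. The ipsilateral-leaning share of the ipsilateral-only group was 10% when sharing needed 50% of both peaks to be covered, below the 20.2% over all regions. The lean of that group thus depended on how sharing was defined. In that setting peaks with a partner of another width also count as ipsilateral only, and their part in the lower share was not tested.

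The contralateral groups stayed near or below the shares of all regions on the ipsilateral side. Among the 100 contralateral-only regions of highest −log10 q, 12% (7.00 to 19.8) leaned ipsilateral in H3K4me3 and 9% (4.81 to 16.2) contralateral. Among the 100 shared regions with the most contralateral H3K9ac density, with a median ratio of 0.546, the shares were 15.0% (9.31 to 23.3) and 18.0% (11.7 to 26.7). At the 94 and 96 regions of these groups with H3K4me3 on both sides, the median ratio of its folds was 1.04 and 1.00. In groups of 500 the ipsilateral-leaning share was 45.0% for ipsilateral-only, 47.8% for the most ipsilateral shared, 19.8% for contralateral-only and 11.6% for the most contralateral shared regions. The contralateral-leaning shares were 8.40%, 4.60%, 13.0% and 15.6%.

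**Figure D4:**
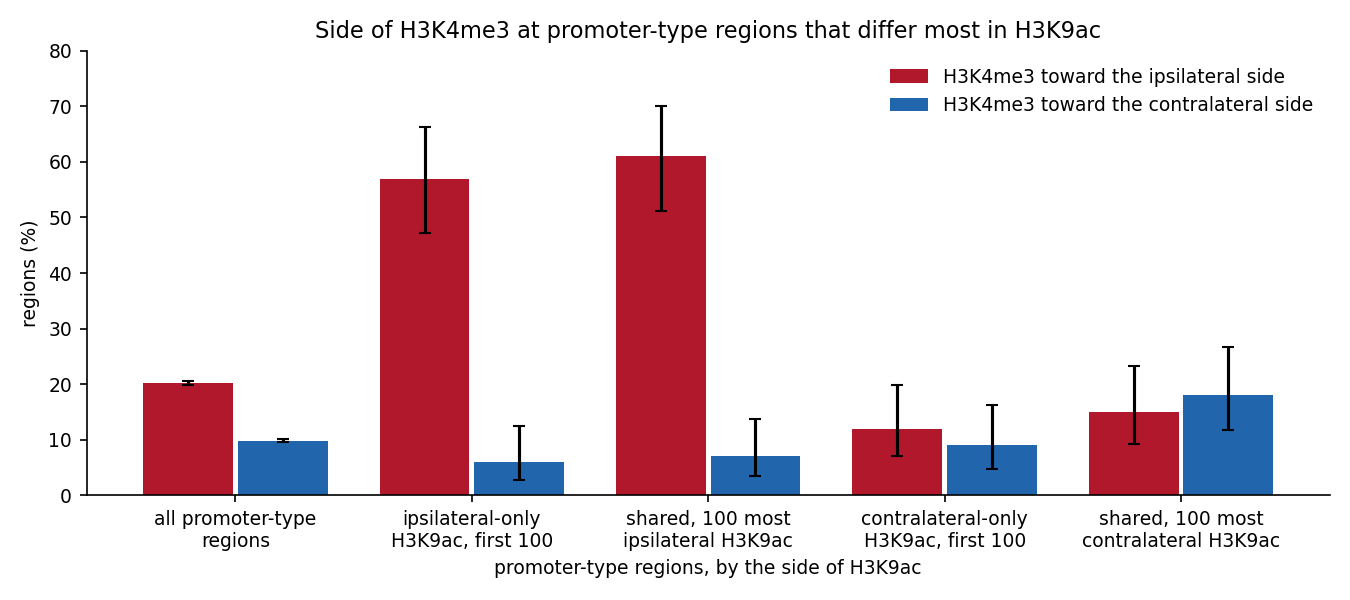
Percent of promoter-type regions (y axis) where H3K4me3 leaned to the ipsilateral (red) or contralateral (blue) side, over all regions and in 4 groups of 100 regions chosen by the side of H3K9ac (x axis), with 95% Wilson intervals as bars. The ipsilateral-leaning share is 57.0% and 61.0% in the ipsilateral H3K9ac groups, 12% and 15.0% in the contralateral ones and 20.2% over all regions.

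The 1-sided H3K9ac groups had weaker H3K4me3 than all promoter-type regions. The median of the higher H3K4me3 fold was 6.34 in the first 100 ipsilateral-only and 6.38 in the first 100 contralateral-only regions, against 9.24 over all. The shares were also taken by H3K4me3 strength. Where the higher H3K4me3 fold was from 5 to below 8, 18.5% of all promoter-type regions leaned ipsilateral, against 61.9% of the first 500 ipsilateral-only regions in that range (65 of 105) and 13.3% of the first 500 contralateral-only ones (14 of 105). Where it was 8 or more, the values were 12.9%, 22.3% (43 of 193) and 16.1% (30 of 186). From 3 to below 5 they were 31.5%, 51.5% (68 of 132) and 20.8% (30 of 144). Below 3 they were 51.7%, 70.0% (49 of 70) and 38.5% (25 of 65), so weak H3K4me3 often leaned ipsilateral over all promoter-type regions as well. The labels do not say whether the H3K9ac and H3K4me3 libraries of a side came from the same tissue.

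Over the bulk of promoters the side differences of both marks were nearly unrelated. Of 21259 H3K4me3 regions with an H3K4me3 peak on both sides, 88.2% held ipsilateral and 92.0% contralateral H3K9ac, and 86.1% both. Across the 18313 with both marks on both sides, the rank correlation of the side difference in fold percentile was 0.05, given as a description. By the strength of H3K4me3, H3K9ac was present at 57.5% (ipsilateral) and 71.0% (contralateral) of the lowest 10% of these regions, and at 99.2% and 99.8% of the highest 10%. Where H3K4me3 was called on the ipsilateral side alone (11771 regions), H3K9ac was present at 20.6% ipsilaterally and 19.97% contralaterally. Where it was called on the contralateral side alone (10507 regions), the shares were 9.42% and 13.2%. The ipsilateral part of the 1-sided H3K9ac was 52.4% in the former, 25.5% in the latter and 26.0% where H3K4me3 was on both sides.

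The older rats, labelled 21 months (22 months in the study's design text) and of the same disease and treatment, gave lists of H3K9ac that did not enter the choice of regions. They kept 66910243 ipsilateral and 99213634 contralateral tags. Of the shared promoter-type regions of the 13-month rats, 94.3% had a peak in the older ipsilateral list and 94.2% in the contralateral one, and of the shared distal regions 76.2% and 74.0%. Ipsilateral-only regions had a peak on their own side in 31.5% and on the other side in 45.1% for promoter-type regions, and in 22.9% and 30.5% for distal regions. Contralateral-only regions were at 48.1% on either side for promoter-type regions and at 34.4% ipsilateral and 31.2% contralateral for distal ones.

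**Figure D5:**
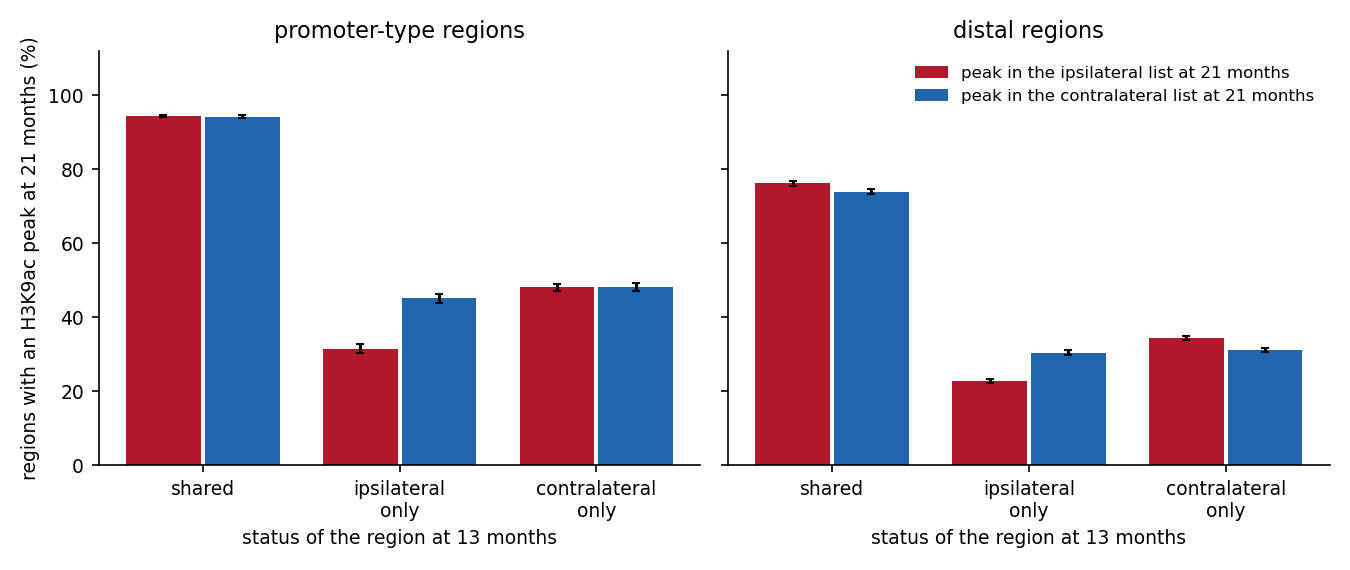
Percent of 13-month H3K9ac regions (y axis) with a peak in the ipsilateral (red) or contralateral (blue) H3K9ac list of the 21-month rats, by the status of the region at 13 months (x axis), for promoter-type regions on the left and distal regions on the right, with 95% Wilson intervals. Shared regions stand at 94.2% and 94.3% (promoter-type) and at 74.0% and 76.2% (distal), and 1-sided regions at 22.9% to 48.1%.

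Among the strongest 1-sided regions the values differed by side. Of the 500 contralateral-only promoter-type regions of highest −log10 q, 90.6% had an ipsilateral and 74.8% a contralateral peak in the older rats, and 12 had neither. Of the 500 ipsilateral-only ones, 50% and 59.6% did, and 106 had neither. The first 100 of the latter went the other way, with 30 regions peaked on the ipsilateral side alone in the older rats, 16 on the contralateral side alone, 42 on both and 12 on neither. The distal groups of 500 were alike, at 84.6% and 73.0% for contralateral-only regions, with 32 in neither list, and at 50% and 48.4% for ipsilateral-only regions, with 155 in neither. Older rats had H3K9ac on both sides at 339 of the 500 contralateral-only and 154 of the 500 ipsilateral-only promoter-type regions. The groups of 500 reached down to a −log10 q of 11.2 (contralateral) and 7.49 (ipsilateral) in the promoter-type class, so they were not of equal confidence. Age and any other difference between the older and younger lists, such as the tags kept, cannot be told apart.

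H3K27me3 overlapped few distal regions, from 1.48% to 3.91% over the 3 status groups and both sides. At promoter-type regions its ipsilateral and contralateral peaks met 20.6% and 20.1% of shared, 16.3% and 13.1% of contralateral-only and 8.65% and 5.60% of ipsilateral-only regions. The H3K27me3 lists had 71635071 ipsilateral and 35621686 contralateral tags kept. Ipsilateral-only H3K9ac at promoters thus had the lowest share of Polycomb-marked regions on either side. No H3K27me3 peak of either side was met by 79.85% of all promoter-type regions and by 90.13% of ipsilateral-only ones. Shared regions were wider, with median covers of 1079 and 1198 bp, against median lengths of 306 bp (ipsilateral only) and 317 bp (contralateral only). The part of width in these shares was not tested.

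The shared part of distal regions was 17.5% at 2 to 5 kb from the nearest H3K4me3 peak, 16.8% at 5 to 20 kb, 16.0% at 20 to 100 kb and 12.4% beyond 100 kb. The ipsilateral part of the 1-sided regions lay between 32.4% and 34.4% in these bins, and the median density ratio of shared regions, on the log2 scale, between 0.39 and 0.42. The shared part was thus lower at each step away from H3K4me3.

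Clusters of distal peaks were described with a looser rule, under which the peaks of the sides need not overlap. Distal regions joined across gaps of up to 12.5 kb formed 24236 stretches. Of these, 1445 held at least 5 peaks on each side, while 9 held at least 5 ipsilateral and 0 contralateral peaks and 137 the reverse. In the 1445 stretches the median ratio of covered length, ipsilateral to contralateral, was 0.608, and 241 were covered more on the ipsilateral side. The stretch with the most ipsilateral cover, at chr3:29873759-29978089, held 54 ipsilateral peaks over 35.6 kb and 53 contralateral peaks over 43.8 kb. The next, at chr3:155170727-155281659, held 48 peaks over 29.8 kb and 50 peaks over 46.7 kb. The third, at chr19:11507487-11659296, held 55 peaks over 29.7 kb and 72 peaks over 58.1 kb. Peaks on both sides were required of the 1445 stretches, so their presence on both sides is no finding, and the ipsilateral list, in which these stretches had less cover, was the less deeply sequenced one.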

How the data were processed

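Per the labels' protocols, ThruPLEX libraries were sequenced as read pairs. HOMER, Bowtie2 and cutadapt are named, without versions, in the submitters' processing notes. The authors called narrow peaks with MACS 2.1.1.20160309 at a q cutoff of 0.05, with single-end handling, 1 tag kept per position and a genome size of 2.70 Gb, per the file headers. No build is named in the sources used here, so coordinates are those of the lists, 1-based, and no gene, gene list, marker or sequence was assigned. The deposited lists give the pileup (coverage signal, whole ChIP fragments in the 13-month H3K9ac lists), the fold (a ratio to the local background with 1 added to both) and −log10 p and q values, per the file headers and a check of their values.

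Peaks were shared when they overlapped by 1 bp. Python 3.11.15, numpy 2.4.6, pandas 2.3.3 and scipy 1.17.1 were used, and overlaps were checked on simulated intervals. Named regions are the 5 leading ones of each class by fold (1-sided, or shared by the lower fold) and by width, taken in part here. The members and groups were chosen with earlier results of these data known. Density, depth scaling, the lean of H3K4me3 and the stretches were added after the data were seen. Alternatives were equal numbers, the first 10000 peaks, a fold of 4, assembled chromosomes, 50% reciprocal overlap and other uses of H3K4me3. No paired analysis was possible because each list pools its libraries.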

Additional observations from a re-analysis of the deposited data

How the results depend on the processing

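Of 80 alternative values for 14 results, 26 stayed within the counting interval of the reported value, which is narrow with this many peaks, and 54 moved beyond it. No paired analysis was possible because the libraries were pooled before peak calling. The shares of peaks with a partner are given in the order ipsilateral promoter-type, contralateral promoter-type, ipsilateral distal and contralateral distal. Equal numbers of peaks gave 79.0%, 78.8%, 33.1% and 29.0%, and an entry at a fold of 4 gave 76.4%, 87.1%, 17.1% and 30.9%. With at least 50% of both peaks covered they were 56.0%, 53.0%, 16.5% and 10.4%. With overlap in place of a 2 kb distance to H3K4me3 they were 93.4%, 88.9%, 41.3% and 25.3%, and with H3K4me3 on both sides 84.7%, 75.3%, 41.4% and 25.5%. With the first 10000 peaks they were 88.4%, 87.5% and 15.2%, with too few contralateral distal peaks for a share. In each of these settings the promoter-type share lay above the distal share. The ipsilateral part of 1-sided regions, promoter-type then distal, was 51.6% and 47.1% (equal numbers), 48.1% and 68.3% (first 10000, with 41 distal regions), 69.3% and 70.5% (fold of 4), 46.9% and 36.9% (50% covered), 37.3% and 34.0% (overlap with H3K4me3) and 37.1% and 33.6% (H3K4me3 on both sides). The side with more of them thus depended on the peaks entered.

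The length ratio stayed below 1. At promoter-type regions it was 0.932 with a fold of 4, 0.942 with 50% covered and 0.949 in the first 10000 peaks. At distal regions it was 0.798 with equal numbers, 0.743 with a fold of 4, 0.930 with 50% covered and 0.851 with H3K4me3 on both sides. The rank correlation of fold at promoter-type regions was 0.75 with a fold of 4, 0.81 with 50% covered, 0.80 with overlap with H3K4me3 and 0.44 in the first 10000 peaks. At distal regions it was 0.18 with a fold of 4 and 0.25 with 50% covered. The following alternatives were added after the data were seen. Scaled by kept tags alone, without fragment length, the median density ratio was 1.25 at promoter-type and 1.42 at distal regions, and it was 1.11 at promoter-type regions in the first 10000 peaks. The ipsilateral lean of H3K4me3 was 43.0% at the first 100 ipsilateral-only and 6.00% at the first 100 contralateral-only regions with a ratio of 2 in place of 1.5. It was 10% at the former when 50% of both peaks had to be covered. That setting also counts peaks with a partner of another width as 1-sided, and their part in the lower share was not tested. Assembled chromosomes alone moved none of the 10 planned results.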

Other observations

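The distal region at chr19:56337679-56339242 held the highest coverage of each H3K9ac list, 378 ipsilateral and 400 contralateral fragments. Its folds were low for that coverage, 6.26 and 1.62, and its fold percentiles were 78.7 and 0.00320. As the fold is a ratio to the local background, the background of this region was high on both sides and higher contralaterally. It lay far above the list medians of 2.94 ipsilateral and 6.54 contralateral. The part of the limit of 1 tag kept per position in this region's values was not tested. H3K27me3 was also called there on both sides, with folds of 1.80 and 2.25, and H3K9ac of the older rats was not. On chromosome X, 8.80% of distal regions (41 of 466) were shared, against 13.5% (chromosome 14) to 20.3% on the other chromosomes, while 66.5% of its promoter-type regions were shared. The median log2 density ratio of its shared distal regions was 0.62. On the other chromosomes the ipsilateral share of 1-sided distal regions ran from 26.9% on chromosome 12 to 40.1% on chromosome 2.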
